A study of Mus musculus with 12 samples.

Results

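The tRNA-Gln fragments are the small RNA reads assigned to the nuclear-encoded mature tRNAs that carry glutamine, listed as mature-tRNA-Gln-CTG and mature-tRNA-Gln-TTG after their anticodons. The 2 isoacceptors were among 51 listed, and with 4 read classes each they gave 8 of the 201 fragments that had a read in any library. The family was chosen by its reads in the HFD versus CD sperm comparison, so its values in that contrast are given as a description, and the calls there support nothing. The 12 small RNA libraries came from mouse epididymal sperm and from TM4, a mouse Sertoli cell line. CD sperm (n = 3) came from mice on a control diet with 16% of energy from fat and HFD sperm (n = 3) from mice on a high-fat diet labelled with 69%, both for 7 weeks from 4 weeks of age, and each sperm library pooled 3 mice. The TM4 cells were untreated (Ctrl, n = 2), given 10 µM of Compound C, an inhibitor of the kinase AMPK, for 12 h (CC, n = 2), or made to overexpress the full-length coding sequence of angiogenin, a ribonuclease that cuts tRNAs (Ang OE, n = 2). The labels name no empty vector for Ctrl, the study's methods name C57BL6/J males for the diets, and the study's text gives a lower fat share for the HFD and a later start of the diets than the labels printed here. Nothing in the labels says that the TM4 replicates were separate cultures, so p-values there measure the spread between these libraries, which may be technical.

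Transfer RNAs bring amino acids to the ribosome. Each ends in a CCA tail that is added after transcription and holds the amino acid, and angiogenin is known to cut in the anticodon loop, which leaves a 5′ and a 3′ fragment. Sperm is known to carry large amounts of tRNA fragments, in which 5′ fragments of a few tRNAs such as tRNA-Gly and tRNA-Glu usually dominate. The deposited tables sort the reads of each tRNA into those that start at its 5′ end (5′-end reads), those at its 3′ end (3′-end reads), those at the CCA tail (CCA-end reads) and the rest. The rest, called other reads here, is the total of an isoacceptor less its end classes. How the 3′-end and CCA-end classes divide reads beyond their names is not given in the sources used here.

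A search of the GRCm39 genome for 72-base stretches that fold as a tRNA with the anticodon CTG or TTG found 19. The 16 with at least 15 pairs in their 3 stems were kept as genes. Their number on each chromosome and for each anticodon equals that of the 16 tRNA-Gln genes that RefSeq names on GRCm38.p6. The length was taken from those RefSeq genes and the limit on pairs was set after the stretches were seen. The equality is therefore no independent check. The 10 CTG genes lie on chromosomes 3, 9, 11 and 13, and the 6 TTG genes on 11, 13 and X. They have 5 distinct sequences for each anticodon. In the GENCODE vM39 annotation 8 of the genes lie between genes, 7 in introns of other genes, and 1 in an intron of 4833417C18Rik that is also an exon of Gm11527. The commonest CTG sequences and a pair of TTG sequences are shown because they decide which reads can be told apart. They are printed as genomic DNA from the 5′ end, without the CCA tail, and with the anticodon, bases 34 to 36, in capitals.
CTG, 4 genes, for example chr9:64645328-64645399 on the plus strand, intergenic: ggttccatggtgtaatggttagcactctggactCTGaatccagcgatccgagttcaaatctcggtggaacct
CTG, 3 genes, for example chr3:96386707-96386778 on the plus strand, intron of Gm64686: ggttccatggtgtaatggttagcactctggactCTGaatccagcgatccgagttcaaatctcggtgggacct
TTG, 1 gene, chr11:95749998-95750069 on the minus strand, exon of Gm11527: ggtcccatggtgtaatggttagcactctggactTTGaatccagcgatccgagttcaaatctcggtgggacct
TTG, 2 genes, for example chr13:23703220-23703291 on the plus strand, intron of Gm61424: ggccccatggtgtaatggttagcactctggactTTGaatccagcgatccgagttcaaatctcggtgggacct

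Counted from the 5′ end, the second CTG sequence differed from the chromosome 11 TTG sequence by T4C and C34T, and the last 38 bases were identical. The first CTG sequence differed from the second by A68G. Over all 16 genes, 4 CTG and 3 TTG genes had the same 36 bases after the anticodon, while no sequence before the anticodon occurred with both anticodons. A read that begins at base 1 and passes base 4 can therefore be assigned to 1 isoacceptor, but a read from behind the anticodon often cannot. For each isoacceptor the deposited 5′-end values were whole to within 0.01 in 12 of 12 libraries, against 0 of 12 for 3′-end reads, 2 of 12 for CCA-end reads and 0 of 12 for other reads. The split of 3′ reads between CTG and TTG is therefore uncertain, and their sum is given where it matters. Calls of CTG and TTG in 1 such class are therefore not independent of each other.

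The libraries held 31.7 to 41.5 M clean reads from sperm and 51.5 to 64.04 M from TM4. Levels are given as RPM, reads per M clean reads without ribosomal RNA (M, mega). Ribosomal RNA made up 16.5% to 25.2% of clean reads in CD and 24.7% to 32.9% in HFD sperm. All 10 germ cell miRNA markers had reads in every sperm library, at 1810 to 4970 RPM summed. The sperm libraries also held all 5 epithelial markers (4480 to 7580 RPM), all 4 red blood cell markers (12600 to 25300 RPM), both smooth muscle markers (16200 to 26300 RPM in CD and 15300 to 29700 RPM in HFD) and all 3 white blood cell markers, the last at 279 to 333 RPM in CD and 419 to 712 RPM in HFD sperm. In TM4 the epithelial markers summed to at most 1.55 RPM and the white blood cell markers to at most 2.42 RPM. The Sertoli and gonad marker mir-202 was at or near 0 in all 6 TM4 libraries, at no more than 0.110 RPM, and the reads do not measure Ang itself. In bulk RNA, fewer cells of a type and less RNA per cell cannot be told apart.

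tRNA-Gln-CTG was the more abundant isoacceptor in every library. It measured 1309, 1817 and 978 RPM in the 3 CD sperm libraries and 1516, 2407 and 2376 RPM in HFD sperm. In TM4 it measured 392 and 380 RPM in Ctrl, 414 and 498 RPM in CC, and 385 and 434 RPM in Ang OE. All 6 sperm libraries lay above all 6 TM4 libraries, and the CD and HFD ranges overlapped. tRNA-Gln-TTG measured 324, 468 and 257 RPM in CD and 453, 766 and 627 RPM in HFD sperm. It measured 255 and 247 RPM in Ctrl, 267 and 313 RPM in CC, and 255 and 266 RPM in Ang OE, so that the lowest sperm library was within the TM4 range. Ordered by their means, the groups ran from HFD sperm through CD sperm, CC and Ang OE to Ctrl for both isoacceptors. Neighbours in that order overlapped in range, except CD sperm over CC for tRNA-Gln-CTG and CC over Ang OE for tRNA-Gln-TTG.

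**Figure D1:**
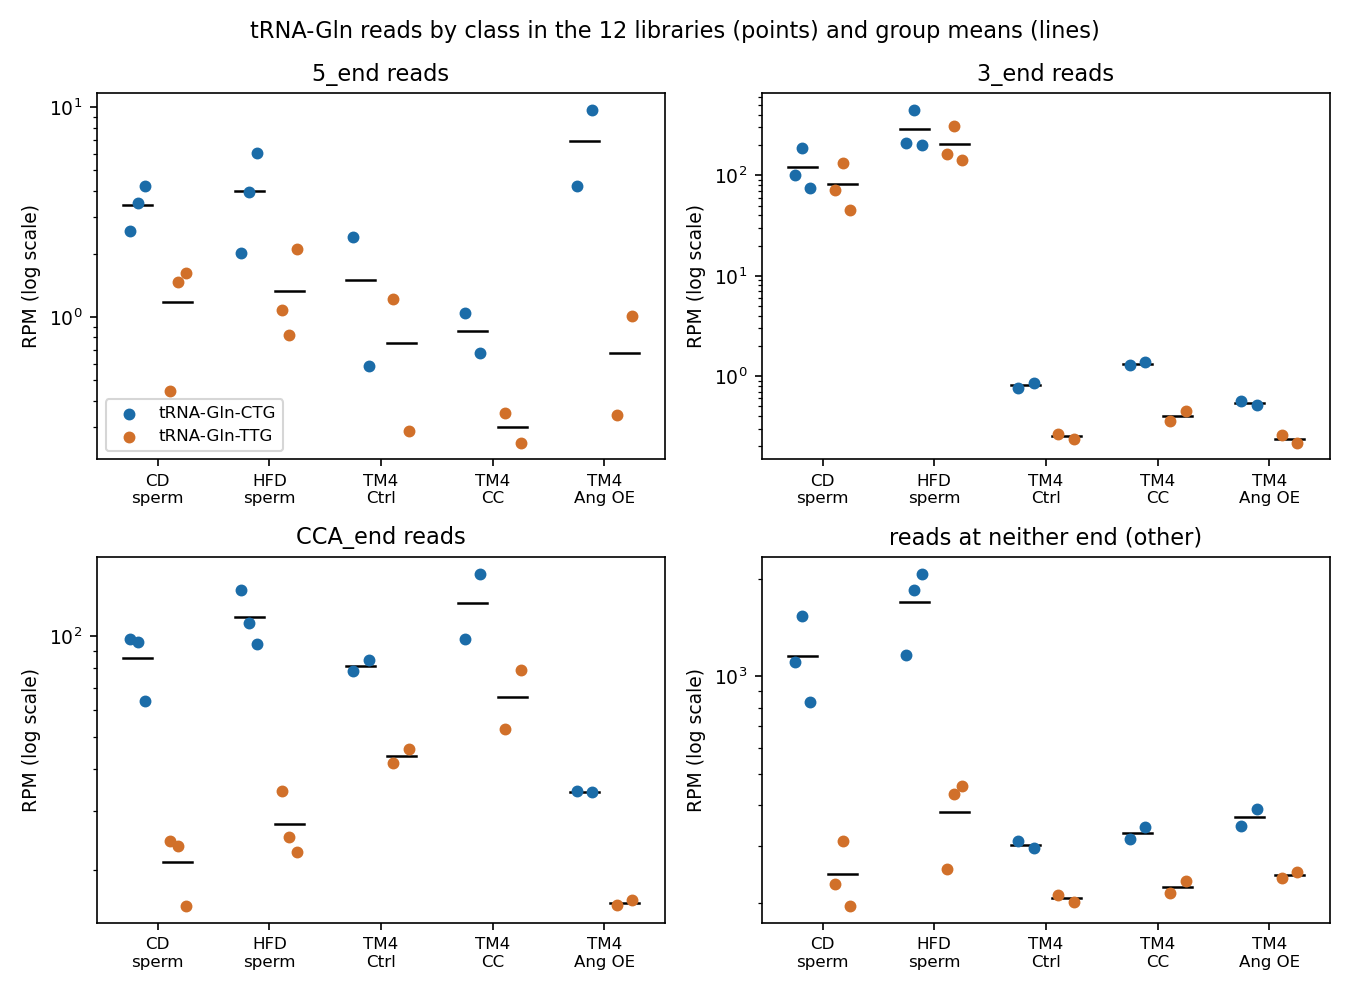
Reads of tRNA-Gln-CTG (blue) and tRNA-Gln-TTG (orange) in each of the 4 classes, in RPM on a log scale, with 1 point per library and a line at the group mean. The 3′-end panel shows sperm libraries at 44.7 RPM or more and TM4 libraries at 1.38 RPM or less.

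The family was a small part of the tRNA reads. It took 1.06%, 2.12% and 0.745% of mature tRNA reads in CD sperm and 1.46%, 2.25% and 2.31% in HFD sperm. The shares were 2.35% and 2.77% in Ctrl, 2.50% and 3.03% in CC, and 1.74% and 1.41% in Ang OE, the lowest of the TM4 groups. By reads, tRNA-Gln ranked 6th to 9th of 22 tRNA families in sperm and 8th to 10th in TM4.

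The classes of tRNA-Gln reads differed from those of the other tRNAs pooled. Its 5′-end reads were 0.151% to 0.473% of its reads in sperm and 0.114% to 1.53% in TM4. In the same libraries 5′-end reads were 65.2% to 80.4% and 7.37% to 63.9% of the reads of all other tRNAs. Among the 22 families its 5′-end share ranked 20th in each sperm library and 14th to 21st in TM4. Other reads made up most of the family instead, at 71.9% to 84.3% of its reads in sperm and 70.99% to 91.3% in TM4, against 18.6% to 32.5% and 26.1% to 44.9% for all other tRNAs. Family by family, the share of other reads ranked only 5th to 13th of 22 in sperm and 1st to 6th in TM4, since the pool is weighted by its most abundant tRNAs. These are descriptions of shares within libraries, with no test.

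**Figure D2:**
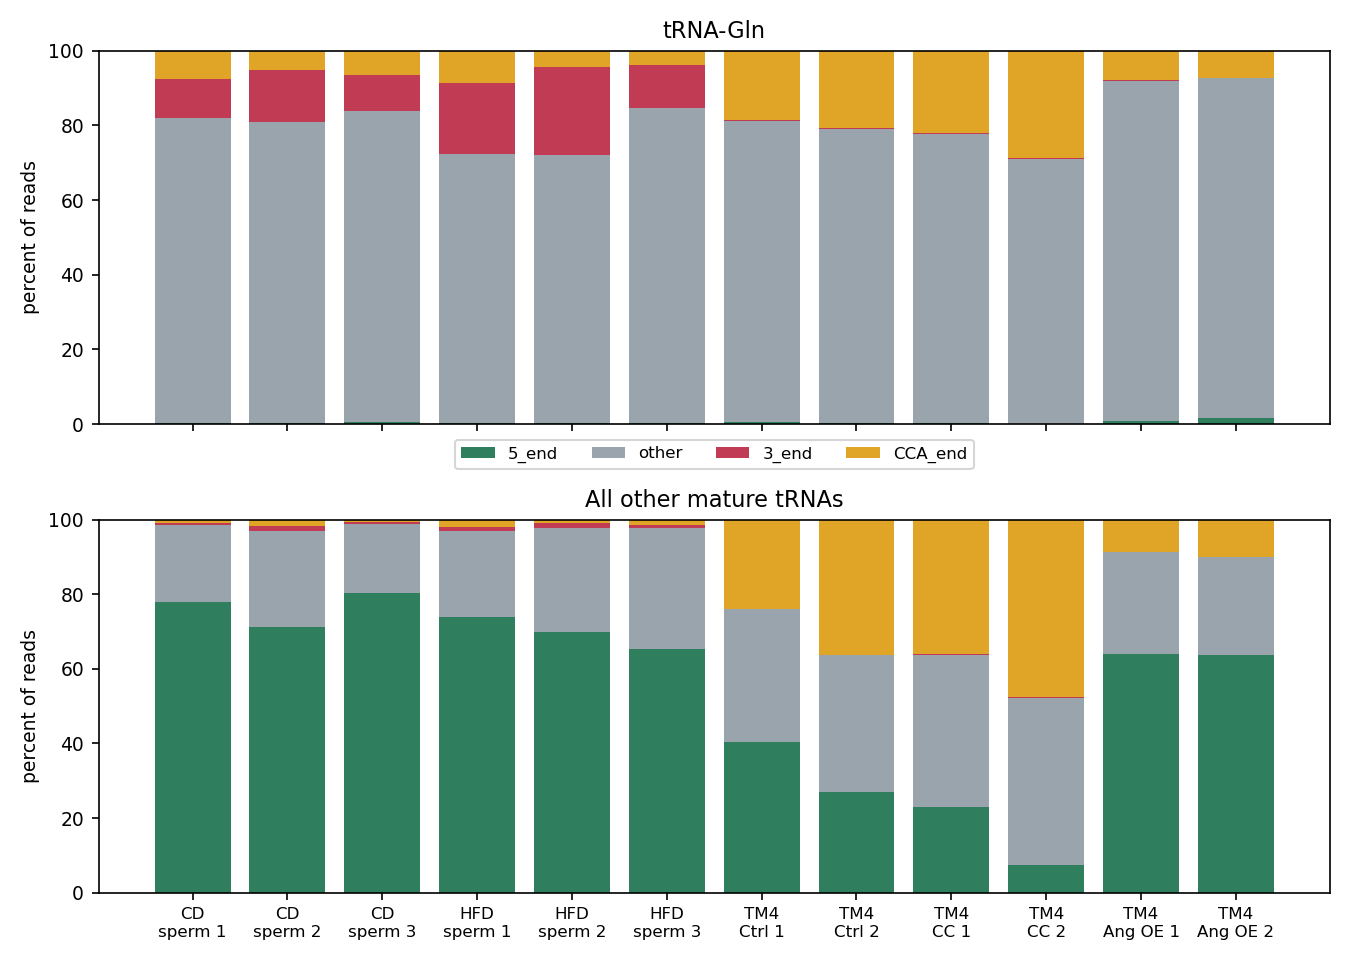
Percent of reads in each class in the 12 libraries, for tRNA-Gln (upper bars) and for all other mature tRNAs (lower bars). The 5′-end class, 65.2% or more of the other tRNAs' reads in sperm, is at most 1.53% for tRNA-Gln in any library, and 3′-end reads are visible for tRNA-Gln in sperm only.

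The 3′-end reads separated sperm from TM4. They were 10.6%, 13.9% and 9.65% of the family's reads in CD sperm and 18.98%, 23.8% and 11.5% in HFD sperm, but 0.105% to 0.241% in TM4. For all other tRNAs the 3′-end share was lower, 0.306% to 1.41% in sperm and 0.0430% to 0.142% in TM4, and also did not overlap between the kinds of sample. The family thus gave 17.7% to 30.6% of all tRNA 3′-end reads in sperm, and 2.65% to 5.83% in TM4. Ranked by this share, tRNA-Gln stood 3rd of 22 families in each of the 6 sperm libraries, with a median of 12.7%. The families above it were tRNA-Pro with a median of 43.6% and tRNA-Thr with 25.8%, and the next below was tRNA-Cys with 7.27%. These families were named after their values were seen.

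**Figure D3:**
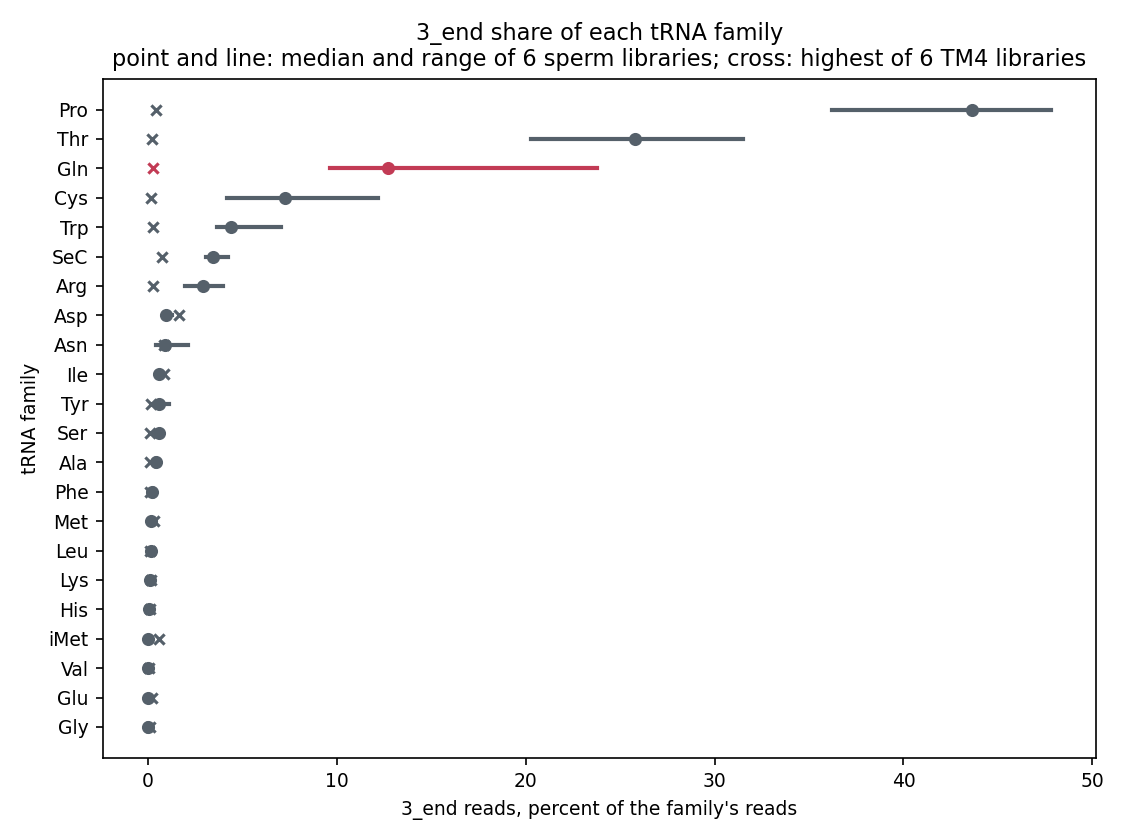
3′-end reads as a percent of each family's reads for 22 tRNA families, with the median and range of the 6 sperm libraries as a point and line and the highest of the 6 TM4 libraries as a cross. tRNA-Gln (red) has the third highest median, 12.7%, and at most 0.241% in TM4.

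The balance between 3′-end and CCA-end reads differed in the same way. In CD sperm the family had 1.41, 2.66 and 1.49 3′-end reads for each CCA-end read, and in HFD sperm 2.18, 5.62 and 2.94. In TM4 the ratio was 0.00786 to 0.0165. For all other tRNAs it was lower in every sperm library, at 0.399 to 1.17, and 0.00239 to 0.00595 in TM4. Within the family the ratio was higher for tRNA-Gln-TTG than for tRNA-Gln-CTG in all 6 sperm libraries, at 2.86 to 12.2 against 1.03 to 4.09. In TM4 it was 0.00514 to 0.0165 for TTG and 0.00896 to 0.0164 for CTG, and TTG was higher only in Ang OE replicate 1. The split of both classes between the isoacceptors is uncertain.

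The ratio of CTG to TTG reads depended on both the class and the kind of sample. Among other reads it was 4.27 to 4.93 in sperm and 1.45 to 1.57 in TM4. Among CCA-end reads it was 3.99 to 4.34 in sperm and 1.84 to 2.19 in TM4. Among 3′-end reads the order was the opposite, with 1.29 to 1.66 in sperm and 2.18 to 3.65 in TM4. The ranges of sperm and TM4 did not overlap in any of these 3 classes. Among the few 5′-end reads the ratio was 1.87 to 5.83 in sperm, 1.98 and 2.06 in Ctrl, 3.00 and 2.67 in CC, and 12.2 and 9.62 in Ang OE, the highest of all libraries. The 3′ sequence shared by 7 of the 16 genes limits what the ratios of 3′-end, CCA-end and other reads say of the isoacceptors.

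**Figure D4:**
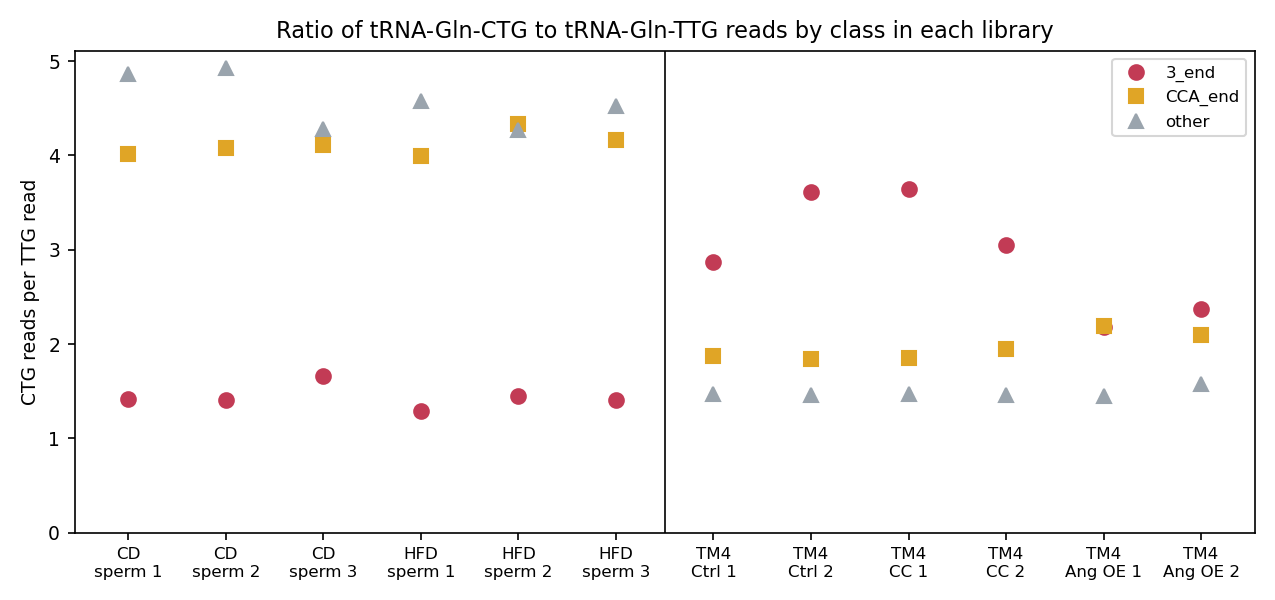
Number of tRNA-Gln-CTG reads for each tRNA-Gln-TTG read in the 12 libraries, by class, with sperm to the left of the vertical line and TM4 to the right. Ratios of other reads (triangles) lie at 4.27 or more in sperm and at 1.57 or less in TM4, and those of 3′-end reads (circles) lie lower in sperm than in TM4.

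The comparison of diets in sperm asked whether a high-fat diet of the father changes sperm tRNA fragments. The 3′-end reads of the family were the higher ones on the HFD. tRNA-Gln-CTG 3′-end reads measured 101, 186 and 74.5 RPM in CD and 210, 446 and 202.1 RPM in HFD sperm. The diets did not overlap, with the smallest gap between HFD replicate 3 and CD replicate 2. tRNA-Gln-TTG 3′-end reads measured 71.4, 132 and 44.7 RPM in CD and 163, 308 and 143.6 RPM in HFD sperm, again without overlap. The log2 fold changes were 1.25 (SE 0.37) for CTG and 1.31 (SE 0.38) for TTG, and the summed 3′-end reads had means of 203 ± 103 RPM for CD and 491 ± 228 RPM for HFD (SD, n = 3 each). They were 3rd and 2nd from the highest among the 184 fragments tested.

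The remaining classes overlapped between diets for both isoacceptors. How many of all 184 fragments lacked overlap was not counted, and 92.9% of them had a higher value on the HFD under this scaling. As a share of the family's reads the 3′-end class overlapped too, at 9.65% to 13.9% in CD and 11.5% to 23.8% in HFD sperm. Other reads of tRNA-Gln-CTG measured 1107, 1531 and 835 RPM in CD and 1166, 1847 and 2073 RPM in HFD sperm, a log2 fold change of 0.55 (SE 0.33). For tRNA-Gln-TTG other reads the log2 fold change was 0.64 (SE 0.34). The CCA-end reads had log2 fold changes of 0.40 (SE 0.33) for CTG and 0.37 (SE 0.31) for TTG. The 5′-end reads were few, at 56 to 169 reads per sperm library for CTG and 12 to 59 for TTG, with log2 fold changes of 0.22 (SE 0.35) and 0.19 (SE 0.43). With TMM scaling the values of other reads became 0.06 for CTG and 0.14 for TTG, and the CCA-end and 5′-end values turned to -0.11 and -0.33 for CTG and to -0.14 and -0.35 for TTG.

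By the thresholds drawn in the study, an unadjusted p under 0.05 and a fold over 1.5, edgeR's quasi-likelihood test called 2 of the 8 members higher, both 3′-end classes, beside 15.2% of all 184 fragments. Adjusted by the Benjamini-Hochberg method it called 0 of 8, beside 0.0% of all fragments, and 28 of the 184 had an unadjusted p under 0.05. DESeq2 with the same library sizes also called 0 of 8 after adjustment. The family was chosen on these same values, so these counts are no test of it and are given only beside the background. The CTG and TTG 3′-end classes can hold the same reads and are not independent. Without HFD replicate 2 the CTG 3′-end log2 fold change was 0.77, a fold still over 1.5, but neither form of the threshold called it. With adjustment, 3 of 8 were called beside 34 of all fragments when CD replicate 2 was left out, 2 beside 4 for HFD replicate 1 and 2 beside 2 for HFD replicate 3. With the replicate number as a block, 2 were called beside 2 of all 184 fragments. The median log2 fold change was 0.47 over the 8 members and 0.44 over all fragments, and TMM scaling moved the latter to -0.08. Under TMM the log2 fold changes of the 3′-end reads were 0.79 for CTG and 0.86 for TTG. The summed white blood cell markers were also higher in every HFD library than in every CD library, the ribosomal RNA shares given above barely overlapped, and their part in the 3′-end values was not tested.

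Over the other amino acids, 9 of 40 3′-end fragments were called higher and 0 lower by the study's thresholds, with a median log2 fold change of 0.53 and a highest of 1.09. Among CCA-end fragments 2 of 47 were called higher, among 5′-end fragments 7 of 41 and among other fragments 8 of 48. A list of 10 commonly reported 5′-end fragments came from tRNA-Gly, tRNA-Glu, tRNA-Val, tRNA-Lys, tRNA-His and tRNA-Asp. It gave 0 calls by edgeR in either form and a median log2 fold change of -0.25. Whether angiogenin cuts these fragments was not tested.

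In TM4 cells, the CC comparison asked what inhibition of AMPK does to tRNA fragments. No member of the family passed the test. CCA-end reads of tRNA-Gln-CTG measured 78.5 and 84.6 RPM in Ctrl and 98.1 and 154 RPM in CC, and those of tRNA-Gln-TTG measured 41.8 and 46.0 RPM in Ctrl and 52.8 and 79.0 RPM in CC. Both CC libraries were above both Ctrl libraries, and CC replicate 2 was far above replicate 1. The log2 fold changes were 0.63 (SE 0.27) and 0.59 (SE 0.25), each with an adjusted p of 0.194 by edgeR. The 3′-end reads stayed at trace levels, 0.770 and 0.854 RPM in Ctrl and 1.29 and 1.38 RPM in CC for CTG, with a log2 fold change of 0.71 (SE 0.30) and the same adjusted p of 0.194. TMM lowered these values to 0.18 and 0.15 for CCA-end reads of CTG and TTG and to 0.30 for the 3′-end reads, and without CC replicate 2 the CCA-end values were both 0.27.

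Other reads of tRNA-Gln-CTG were 310 and 294 RPM in Ctrl and 313 and 342 RPM in CC, a log2 fold change of 0.12 (SE 0.29) that became -0.29 with TMM. In the 5′-end class tRNA-Gln-CTG measured 2.42 and 0.587 RPM in Ctrl and 1.04 and 0.672 RPM in CC. The 2 Ctrl libraries enclosed both CC libraries, and the log2 fold change of -0.79 (SE 0.68) became 0.55 without Ctrl replicate 1. Of the 8 members 0 were called at an adjusted p under 0.05, beside 0.578% of the 173 fragments tested, and 3 of 8 had an unadjusted p under 0.05. DESeq2 with the same library sizes and with its own size factors also called 0 of 8, beside 6 and 7 of the 173 fragments. ComBat-seq with the replicate number as batch gave 1, beside 48 of 175 fragments. Without CC replicate 1, which leaves 1 CC library, the CCA-end values were 0.91 for CTG and 0.85 for TTG. The median over the members was 0.35 and over all fragments 0.40, which TMM moved to -0.04. Of the other amino acids, 1 of 42 5′-end fragments was called higher, and none of 28 3′-end, 47 CCA-end or 48 other fragments was called, where DESeq2 with the same library sizes called 6 of all 173 fragments. The summed red blood cell markers were 1610 to 1640 RPM in Ctrl and 1090 to 1150 RPM in CC, and their part in these values was not tested.

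The Ang OE comparison asked what more angiogenin does to tRNA fragments. In the family the CCA-end reads fell. Summed over the isoacceptors, whose split is uncertain, they measured 120.3 and 130.6 RPM in Ctrl and 50.25 and 50.4 RPM in Ang OE. tRNA-Gln-CTG CCA-end reads measured 78.5 and 84.6 RPM in Ctrl and 34.5 and 34.1 RPM in Ang OE, and tRNA-Gln-TTG CCA-end reads measured 41.8 and 46.0 RPM in Ctrl and 15.8 and 16.3 RPM in Ang OE. The groups stood clearly apart, and the replicates of each lay close together. The log2 fold changes were -1.25 (SE 0.27, adjusted p = 0.0307 by edgeR) for CTG and -1.46 (SE 0.25, adjusted p = 0.0243) for TTG. With 1 library left out the TTG call held in 4 of 4 fits, while the CTG call held in 1 of 4, lost without Ctrl replicate 2 and without either Ang OE library, with log2 fold changes of -1.30 to -1.19 and adjusted p from 0.0399 to 0.0829 by edgeR. As a share of the family's reads, the CCA-end class was 18.6% and 20.8% in Ctrl and 7.86% and 7.20% in Ang OE. Among all other tRNAs it was 23.9% and 36.3% in Ctrl and 8.76% and 10.1% in Ang OE.

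The 5′-end reads of tRNA-Gln-CTG were higher in Ang OE, at 4.198 and 9.70 RPM against 2.42 and 0.587 RPM in Ctrl, with no overlap. They rest on 208 and 529 reads in Ang OE and 121 and 35 in Ctrl. The log2 fold change of 2.22 (SE 0.66) was second from the highest of the 173 fragments, but its adjusted p of 0.0655 missed the threshold. Over the alternatives with all libraries the adjusted p ranged from 0.00345 to 0.0822, and 6 of 12 called it. The log2 fold change was 3.56 without Ctrl replicate 1, 1.52 without Ctrl replicate 2, 2.70 when Ang OE replicate 1 was left out and 1.49 when replicate 2 was. It was called without Ctrl replicate 1 or Ang OE replicate 1. Those of tRNA-Gln-TTG overlapped, at 0.343 and 1.01 RPM in Ang OE and 1.22 and 0.285 RPM in Ctrl, with a log2 fold change of -0.13 (SE 0.71) that became 1.25 without Ctrl replicate 1. Whether the isoacceptors differed in this response was not tested. Even in Ang OE the 5′-end class was only 0.710% and 1.53% of the family's reads, while it was 63.9% and 63.8% of the reads of all other tRNAs.

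The other reads were 346 and 390 RPM in Ang OE for CTG, above both Ctrl libraries, with a log2 fold change of 0.28 (SE 0.29, adjusted p = 0.462 by edgeR). The 3′-end reads of CTG were 0.567 and 0.516 RPM, with a log2 fold change of -0.60 (SE 0.32, adjusted p = 0.186). In all, 2 of the 8 members were called and both were lower, beside 11.6% of the 173 fragments, 9 of these higher and 11 lower. The 2 are the CCA-end classes, which can hold the same reads and are not independent. DESeq2 with its own size factors called 5 members, beside 56 of the 173 fragments. The members called also varied with the library left out, in fits that leave 1 library in a group. In these the CCA-end log2 fold changes were -1.301 to -1.194 for CTG and -1.523 to -1.385 for TTG. Among other amino acids 6 of 47 CCA-end fragments were called lower and 0 higher, 6 of 42 5′-end fragments higher and 0 lower, 3 of 28 3′-end fragments lower, and 3 of 48 other fragments higher. Of the 10 commonly reported 5′-end fragments listed above 0 were called, and their median log2 fold change was 1.27. By the study's thresholds 4 of these 10 passed, beside 61 of all 173 fragments. The median was -0.08 over the members and -0.21 over all fragments, and TMM moved the latter to -0.09. Smooth muscle markers summed to 61700 to 79800 RPM in Ang OE and 29800 to 31200 RPM in Ctrl, germ cell markers to 1210 to 1350 against 613 to 627 RPM, and red blood cell markers to 1090 to 1160 against 1610 to 1640 RPM, and their part in these values was not tested.

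**Figure D5:**
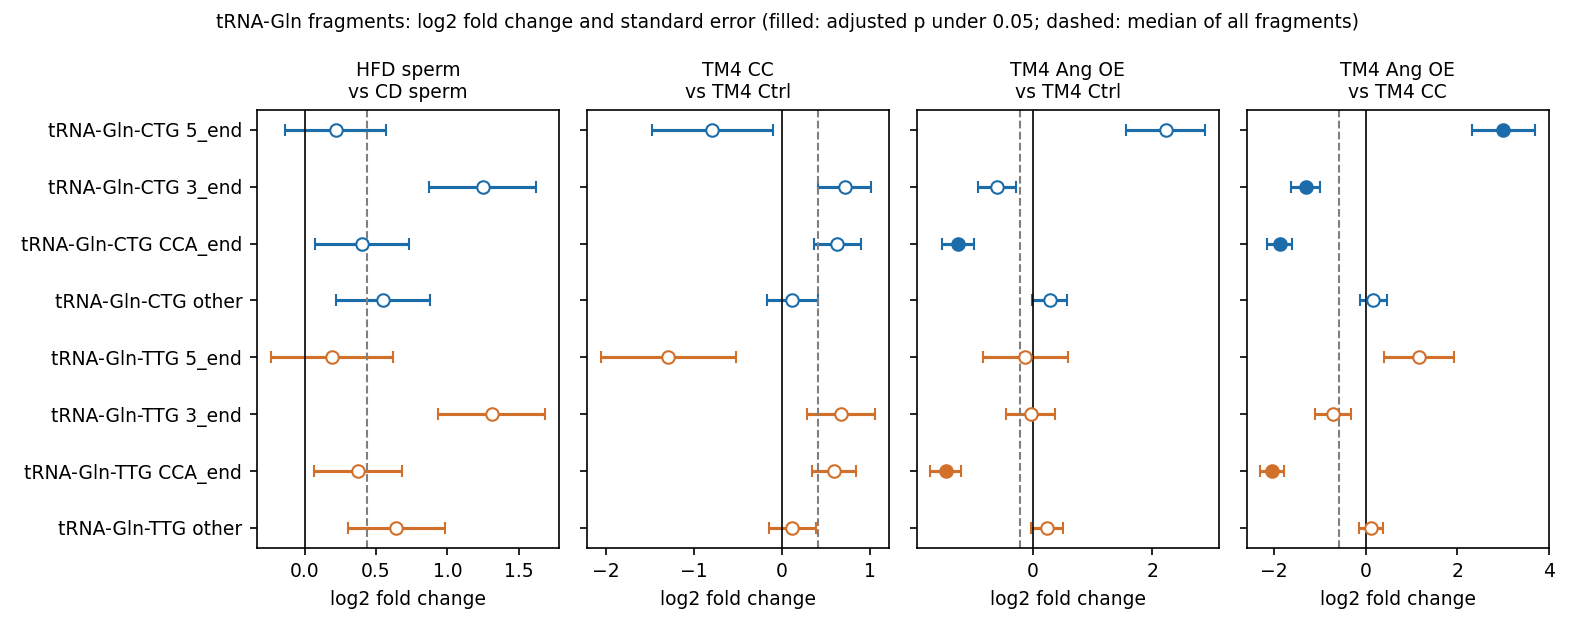
Log2 fold change with its standard error for the 8 tRNA-Gln fragments in 4 comparisons, with CTG in blue and TTG in orange. Filled points had an adjusted p under 0.05 and the dashed line is the median of all fragments tested, and the horizontal scales differ between panels. The CCA-end fragments lie lowest in both Ang OE panels, at -1.25 to -2.04.

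CC and Ang OE were also compared with each other. Their comparisons with Ctrl share the Ctrl libraries. In this contrast the Ctrl libraries enter only the estimate of the spread, and with the compared groups alone 4 members were called as well. The CCA-end reads were lower in Ang OE than in CC, by log2 fold changes of -1.87 (SE 0.27, adjusted p = 0.00321 by edgeR) for CTG and -2.04 (SE 0.26, adjusted p = 0.00262) for TTG. The 3′-end reads of tRNA-Gln-CTG were lower, at -1.31 (SE 0.31, adjusted p = 0.0138), on 28.1 reads in each Ang OE library and 66.7 and 65.5 in CC. This call was lost under TMM at -0.76, under DESeq2 scaling at -0.77, without Ang OE replicate 1 at -1.38 and without replicate 2 at -1.24. The 5′-end reads of tRNA-Gln-CTG were higher, at 3.01 (SE 0.69, adjusted p = 0.0136 by edgeR). This log2 fold change was 2.28 without Ang OE replicate 2 and 3.49 without replicate 1. The other reads had log2 fold changes of 0.17 (SE 0.29, adjusted p = 0.655) for CTG and 0.12 (SE 0.26, adjusted p = 0.720) for TTG by the same test. Both were called higher with TMM, at 0.71 and 0.67, and likewise with DESeq2's own size factors.

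In this comparison 4 of 8 members were called, 1 higher and 3 lower, beside 48.6% of the 173 fragments, so the family's share was near that of all fragments. The lists of other amino acids held 35 lower and 0 higher of 47 CCA-end fragments, 10 lower and 0 higher of 28 3′-end fragments, and 15 higher and 3 lower of 42 5′-end fragments. Of the 48 other fragments 3 were higher and 14 lower. Of the 10 commonly reported 5′-end fragments listed above 8 were higher. The median over all fragments was -0.57, or -0.01 with TMM, and over the members -0.29. Smooth muscle markers summed to 30300 to 42700 RPM and germ cell markers to 565 to 610 RPM in CC, below the Ang OE sums given above, and their part in this contrast was not tested.

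The control groups of both systems were compared last. Sperm and cultured cells differ in tissue, culture and preparation at once, and these cannot be told apart. 3′-end reads were far higher in CD sperm, at 74.5 to 186 RPM for tRNA-Gln-CTG against 0.770 and 0.854 RPM in Ctrl, and at 44.7 to 132 RPM for tRNA-Gln-TTG against 0.268 and 0.236 RPM. The log2 fold changes were 7.20 (SE 0.49, adjusted p = 2.55e-40 by edgeR) and 8.37 (SE 0.53, adjusted p = 1.85e-44), 8th and 3rd from the highest of 39 3′-end fragments. When CCA-end reads were added to the 3′-end class, the log2 fold changes fell to 1.33 and 1.23.

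Other reads of tRNA-Gln-CTG were higher in CD sperm, with a log2 fold change of 1.94 (SE 0.39, adjusted p = 1.65e-06), while those of tRNA-Gln-TTG had 0.25 (SE 0.34, adjusted p = 0.493). Under TMM the CTG value was 0.55, no longer called, and under the size factors of DESeq2 it was 0.73, while TTG became called lower, at -1.13 and -0.95. CCA-end reads of tRNA-Gln-TTG were lower, at -1.05 (SE 0.35, adjusted p = 0.00326), from 24.4, 23.6 and 15.6 RPM in CD sperm against 41.8 and 46.0 RPM, and the call was lost without Ctrl replicate 2 at -0.98. Those of tRNA-Gln-CTG overlapped, at 98.0, 96.1 and 64.2 RPM against 78.5 and 84.6 RPM, but were called lower under TMM at -1.30 and under DESeq2 scaling at -1.12. For tRNA-Gln-CTG the 5′-end reads were called higher at 1.203 (SE 0.41, adjusted p = 0.00445 by edgeR). Their log2 fold change was 0.96 when all clean reads set the library size, 0.11 under DESeq2 scaling and -0.07 under TMM, none of them called. Without Ctrl replicate 2 it was 0.51, and without Ctrl replicate 1 it was 2.54.

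Of the 8 members 5 were called, 4 higher and 1 lower, beside 83.8% of the 179 fragments tested. Without Ctrl replicate 2, which leaves 1 Ctrl library, the log2 fold changes of CTG 5′-end and TTG CCA-end reads were smaller in size, as given above. The median over the members was 0.93 and over all fragments 1.203, and TMM moved the latter to -0.07. Among other amino acids 27 of 37 3′-end fragments were higher and 4 lower, 2 of 47 CCA-end fragments were higher and 39 lower, 32 of 39 5′-end fragments were higher and 3 lower, and 34 of 48 other fragments were higher and 4 lower.

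Profiles over the 12 libraries, centred within sperm and within TM4 on a log2 scale with 1 RPM added, were compared with those of the fragments of other amino acids that had at least 100 reads per library on average. The summed 3′-end reads of the family were most like the 3′-end reads of tRNA-Pro-CGG, tRNA-Pro-TGG and tRNA-Pro-AGG, with root mean square differences of 0.265, 0.267 and 0.270 in log2 units against a median of 0.576 over all of these. The summed 5′-end reads were most like the 5′-end reads of tRNA-iMet-CAT at 0.233 and tRNA-Arg-TCT at 0.298 and the other reads of tRNA-His-GTG at 0.347, with a median of 0.874. The points share libraries and depth, so this is a description of likeness.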

How the data were processed

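The authors trimmed adapters and low-quality bases, annotated the small RNA reads with the SPORTS pipeline, allowing 1 mismatch, and deposited 1 summary table per library. The submitters' processing notes name FastQC 0.12.0, Trimmomatic 0.40 and the mm10 build. The deposited values are estimated counts per annotation, with fractions where a read matched several entries. Reads matching and not matching the genome were added, other reads were taken as the total row minus the end rows, and the estimated counts were rounded before testing. No pre-tRNA rows named Gln were found.

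Mature tRNA fragments entered the test if 3 or more libraries (2 in TM4) had 10 reads. The quasi-likelihood test of edgeR 4.0.16 (R 4.3.3) used clean reads minus ribosomal RNA as library size and Benjamini-Hochberg adjustment. All 8 members passed this filter in each comparison. The TM4 comparisons were fitted over all 6 TM4 libraries. The test was tried on simulated data. Alternatives used DESeq2 1.42.0, ComBat-seq from sva 3.50.0, other scalings, filters and classes, and left out each library. The study names ComBat-seq for the cell lines without naming batches. Depth was 23.0 to 59.6 M reads without ribosomal RNA, and replicates differed beyond sampling noise, the least chi-square over its degrees of freedom being 248.

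Named were the 2 isoacceptors, their 8 fragments, the 3 most similar fragments of other amino acids with at least 100 reads per library on average, and the counts of 5 lists. The members and lists were chosen with earlier results of these data known. tRNA genes were found by their 3 stems, with at least 15 pairs in all, a limit set after the windows were seen.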

Additional observations from a re-analysis of the deposited data

How the results depend on the processing

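Of the members' 577 log2 fold changes recomputed under alternatives, 37 changed sign, 13 lost a call and 27 gained one without a change of sign. For the diet 11 changed sign, all in 5′-end or CCA-end reads and at -0.352 to -0.003. Elsewhere only the 5′-end reads of tRNA-Gln-CTG in CD sperm versus Ctrl, with -0.066 under TMM, changed sign from a called value. With the size factors of DESeq2 and with TMM, in that order, other reads in CC versus Ctrl had -0.225 and -0.294 for both isoacceptors, 3′-end reads of tRNA-Gln-TTG in Ang OE versus Ctrl had 0.173 and 0.101, and in CD sperm versus Ctrl CCA-end reads of CTG had -1.117 and -1.301, 5′-end reads of TTG had -0.444 and -0.615 and other reads of TTG had -0.953 and -1.133. With all clean reads as library size, CCA-end reads of CTG had -0.19 and other reads of TTG had -0.02 there. The 5′-end reads of TTG in Ang OE versus Ctrl had 0.036 with DESeq2's own size factors. Leaving out single libraries, the reversed log2 fold changes ranged from -1.488 to 0.549 for CTG and -2.008 to 0.077 for TTG 5′-end reads in CC versus Ctrl, from -0.163 to 0.088 for 3′-end and -1.109 to 1.247 for 5′-end reads of TTG in Ang OE versus Ctrl, and from -0.025 to 0.251 for CTG CCA-end and -0.048 to 2.033 for TTG 5′-end reads in CD sperm versus Ctrl. With a library left out, counts of members called ranged from 1 to 4 by the study's thresholds and 0 to 3 after adjustment for the diet (1 without HFD replicate 2, 4 and 3 without CD replicate 2), from 0 to 2 for CC, from 1 to 3 for Ang OE versus Ctrl, from 3 to 4 for Ang OE versus CC and from 3 to 6 for CD sperm versus Ctrl. ComBat-seq gave 1 for CC, beside 48 of 175 fragments, and DESeq2's own size factors gave 5 for Ang OE versus Ctrl, beside 56 of 173. For Ang OE versus CC these size factors and TMM each gave 5, beside 76 and 75 of 173 fragments. No cause was tested.

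With the replicate block, 2 members were called after adjustment in the diet comparison, beside 2 of all 184 fragments, and 5′-end reads of TTG in Ang OE versus Ctrl had 0.014, while no other count of members moved by over 1.5 times. The labels do not say that a number marks a shared batch. Deviations of same-numbered sperm libraries correlated at 0.066, 0.224 and 0.236, those of Ctrl and CC at 0.751, and those of Ang OE with Ctrl and CC at -0.212 and -0.207. With the numbers of the Ang OE libraries crossed, a pairing chosen after seeing the data, 3 members were called against Ctrl and 4 against CC. Beside them stood 38 and 96 of all 173 fragments. Fits without a library leave groups of 1 in TM4, assumed to vary like the others.

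The number of all fragments called by the study's thresholds for the diet was 28, but 11 with all clean reads, 9 with DESeq2's size factors, 8 with TMM and 6 (without CD replicate 3) to 64 (without CD replicate 2) with a library left out. At an adjusted p it was 0 for the diet, but 34 without CD replicate 2 and 2 to 4 without HFD replicates 1 or 3. For CC it was 1, but 48 with ComBat-seq, 41 without CC replicate 1, and 6 and 7 with DESeq2. For Ang OE versus Ctrl it was 20, but 71 with ComBat-seq, 56 and 35 with DESeq2, 50 with the compared groups alone, 47 with TMM, 38 with the crossed pairing, 31 with the replicate block 6 without Ctrl replicate 2 and 11 without either Ang OE library. For Ang OE versus CC it was 84, and 37 without Ang OE replicate 1 and 52 without CC replicate 2. Across all fragments TMM moved the share with a higher value from 92.9% to 40.8% for the diet, from 75.1% to 46.2% for CC, from 31.8% to 49.1% for Ang OE versus CC and from 66.5% to 48.0% for CD sperm versus Ctrl. Depth limits the 5′-end class, with as few as 12 reads in a library, and TTG 3′-end reads in TM4, with 11.9 to 21.5.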

Other observations

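Mitochondrial tRNA-Gln, which is encoded in the mitochondrial genome and is no member of the nuclear family, was listed apart and entered no comparison. Its mean level (SD, n = 3 each) was 99.4 ± 14.2 RPM for CD and 119 ± 26.8 RPM for HFD, with ranges of 83.0 to 108 RPM and 93.5 to 147 RPM that overlapped. In TM4 they measured 24.04 and 12.8 RPM in Ctrl, 17.3 and 10.6 RPM in CC and 16.4 and 22.1 RPM in Ang OE, also overlapping. In sperm its 5′-end reads averaged 13.9 ± 2.48 RPM for CD and 17.1 ± 5.95 RPM for HFD, above the 4.62 ± 1.44 and 5.33 ± 2.57 RPM of the whole nuclear family. Its 3′-end reads averaged 2.54 ± 0.633 RPM for CD and 4.99 ± 1.81 RPM for HFD, below the 203 and 491 RPM of the nuclear family.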
